A study of Mus musculus with 28 samples.

Results

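Sorted disc anlage cells from mouse embryos that had lost every functional copy of Pax1 and Pax9 (Pax1-/-Pax9-/-) were compared with cells from embryos that kept 1 functional copy of Pax9 (Pax1-/-Pax9+/-). The members were the 3 arrays of each genotype that were run on the same BeadChip, 6 of the 28 arrays of the series, and all 10540 genes measured on them were tested. Pax1 was absent from both groups, so they differed by the last copy of Pax9. Each replicate held EGFP(+) cells that were sorted by FACS from a pooled pair of dissected vertebral columns of E12.5 embryos (strain hybrid 129Sv/C57BL/6/129X1/129S1), labelled as embryonic disc tissue, and its RNA was amplified before hybridization to Illumina MouseWG-6 BeadChips. The null alleles carry an EGFP cassette inserted in exon 2, in the paired box, so the cells were gated on the null alleles themselves and Pax1-/-Pax9-/- embryos carried 1 EGFP allele more than Pax1-/-Pax9+/- embryos. The gate and the genotype cannot be told apart. Sex and litter were not given in the labels. Where replicates of a group shared a litter, the p-values measure only the spread between these samples.

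Pax1 and Pax9 encode paired-box transcription factors that are expressed in the sclerotome, the part of the somite that forms vertebrae and discs, and their roles there are partly redundant, with Pax1 able to make up for loss of Pax9 more fully than Pax9 for loss of Pax1. Cartilage of the axial skeleton is built from type II collagen and aggrecan, and the transcription factors Sox9, Sox5 and Sox6 drive the genes for both. The annulus of the disc is rich in fibrillar collagen whose fibres are shaped by small leucine-rich proteoglycans and by fibril-associated collagens.

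Levels are background-corrected, quantile-normalized log2 signals, and each difference is Pax1-/-Pax9-/- minus Pax1-/-Pax9+/- with its standard error. A gene was called where the p-value of limma, adjusted by Benjamini-Hochberg over all genes tested, was under 0.05 and the fold change (FC) was at least 1.5. The arrays detected 42.2 to 44.2% of their probes and correlated at 0.960 to 0.974 within groups and at 0.954 to 0.965 between groups. The library labelled Pax1-/-Pax9-/- replicate 1 stood apart in the targeted gene. Its Pax9 level was 6.81, against 4.73 and 4.77 in the libraries labelled Pax1-/-Pax9-/- replicates 2 and 3, and against 6.89, 6.57 and 6.54 in Pax1-/-Pax9+/- replicates 1, 2 and 3. Pax9 was thus detected in this library at the level of embryos with 1 functional copy and was not detected in the other 2 Pax1-/-Pax9-/- libraries. With all 6 arrays the difference in Pax9 was -1.23 ± 0.40 (adjusted p = 0.204, limma), and without the library labelled Pax1-/-Pax9-/- replicate 1 it was -1.92 (adjusted p = 0.00236, limma). The probe has an unknown position relative to the inserted cassette, but this position is the same for every library labelled Pax1-/-Pax9-/-. Why replicate 1 differed from replicates 2 and 3 was not tested. A signal from 1 probe does not settle the genotype, and the library is called by its label below. Pax1 probes read 10.52, 10.61 and 10.61 in Pax1-/-Pax9-/- and 11.04, 11.11 and 11.04 in Pax1-/-Pax9+/-, although both groups lack the gene product, and therefore check nothing about the deletion. This difference of -0.49 ± 0.12 was not called (adjusted p = 0.0872, limma), although the groups did not overlap.

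The libraries also differed in sex-specific transcripts. Kdm5d, which lies on the Y chromosome, read 4.47, 6.31 and 7.83 in Pax1-/-Pax9-/- and 8.75, 7.71 and 7.53 in Pax1-/-Pax9+/-. Xist, the RNA of the inactive X chromosome, read 9.52, 9.63 and 8.46 in Pax1-/-Pax9-/- and 4.54, 8.59 and 8.86 in Pax1-/-Pax9+/-. Kdm5d was thus not detected in the library labelled Pax1-/-Pax9-/- replicate 1 and Xist was not detected in Pax1-/-Pax9+/- replicate 1. Erythroid genes stood high in Pax1-/-Pax9+/- replicate 3: the summed signal of the 5 measured genes of 18 ranged from 1073 to 1230 in Pax1-/-Pax9-/- and from 1135 to 6185 in Pax1-/-Pax9+/-. Neither Kdm5d, Xist nor any erythroid gene was called, and their part in the results below was not tested.

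Between Pax1-/-Pax9-/- and Pax1-/-Pax9+/-, 49 of the 10540 genes were called, 0.465% of those tested. Of these, 33 genes (0.313%) were down-regulated and 16 (0.152%) were up-regulated in Pax1-/-Pax9-/-. In each of the 49 the 3 values of one genotype lay wholly above or below those of the other, which holds for 16.3% of all genes tested. The spread came from the EGFP(+) replicates of 5 genotypes, and the 6 arrays normalized and fitted alone called 42 genes (0.398%), of which 20 were among the 49. All 49 kept their direction in that fit. The split moved with the scaling, with 4 genes higher and 20 lower after median centring and 11 higher and 44 lower on signals floored at 1. Without the library labelled Pax1-/-Pax9-/- replicate 1, 62 genes were called, 22 higher and 40 lower, and 37 of the 49 were among them. The count fell to 26 without Pax1-/-Pax9-/- replicate 2, to 23 without Pax1-/-Pax9+/- replicate 1 and to 24 without Pax1-/-Pax9+/- replicate 3. In all, 18 of the 49 kept their call whichever of the 6 libraries was left out, 15 lower and 3 higher: Ccl2, Col2a1, Dio2, Dpt, Foxa1, Sim2, Sox5, 4930426D05Rik, Col14a1, Col19a1, Cadps2, Hoxa4, Klhl14, Elapor2 and Wwp2 among the falls, and Dio3, Crp and Mamdc2 among the rises. Of these 18, the 6 arrays normalized and fitted alone did not call Col14a1 (adjusted p = 0.0516, limma), Hoxa4 (0.0526), Klhl14 (0.0582), Mamdc2 (0.0693) or Wwp2 (0.120).

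**Figure D1:**
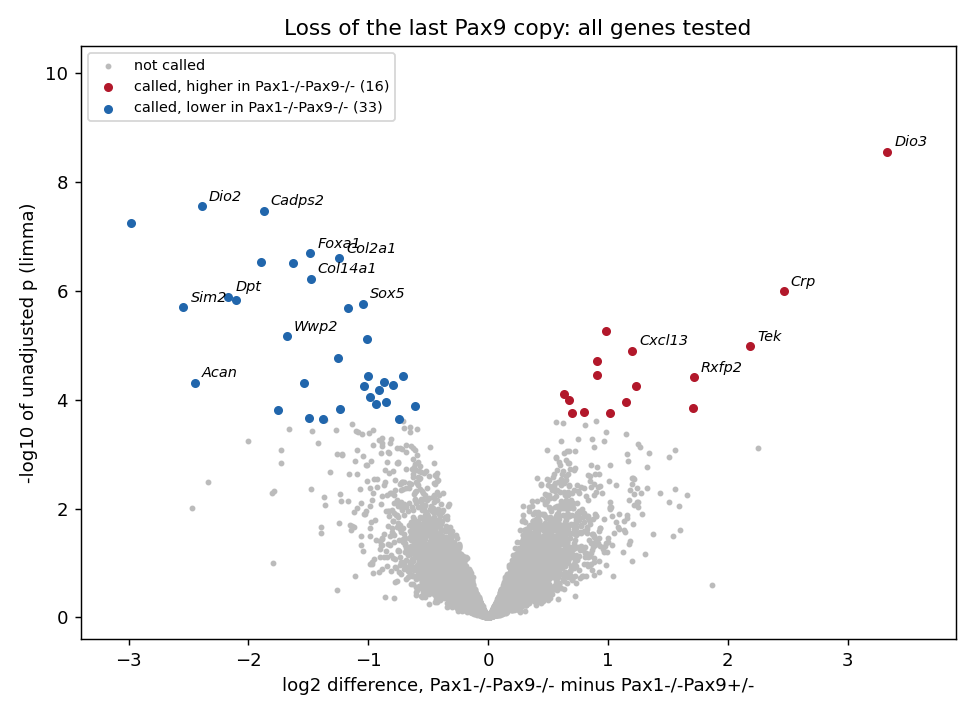
Each point is one of the 10540 genes tested, placed by its log2 difference, Pax1-/-Pax9-/- minus Pax1-/-Pax9+/- (x axis), and by -log10 of its unadjusted limma p (y axis). The 16 genes called higher are red and the 33 called lower are blue, and Dio3 lies farthest out on the side of the rises.

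The gene lists used here and below were written with earlier results of these data known. Their counts and medians describe the members and are not independent evidence. Of the 24 cartilage matrix genes listed, 14 were measured, and 4 of them fell (Col2a1, Acan, Mia and Cnmd) while none rose. The median difference of the 14 was -0.72, against 0.00 over all genes tested, and 10 of them had replicates that did not overlap, all lower in Pax1-/-Pax9-/-. Over all genes tested, 16.3% had replicates that did not overlap, counting both directions. Of all genes tested, 0.313% were called lower and 0.152% higher, the shares to set beside the calls of each list. The summed signal of the 14 ranged from 3155 to 3551 in Pax1-/-Pax9-/- and from 6295 to 6708 in Pax1-/-Pax9+/-. In sorted bulk cells, fewer cells of a type and less RNA per cell cannot be told apart.

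Col2a1, the main fibrillar collagen of cartilage, read 9.05, 9.13 and 8.72 in Pax1-/-Pax9-/- and 10.41, 10.13 and 10.10 in Pax1-/-Pax9+/-. It was down-regulated 2.37-fold (-1.25 ± 0.16, adjusted p = 0.000402, limma), and its 3 probes moved by -1.36 to -1.17. Acan, which encodes the large proteoglycan aggrecan, read 6.94, 7.08 and 6.55 in Pax1-/-Pax9-/-, against 9.40, 9.36 and 9.16 in Pax1-/-Pax9+/-. The Acan replicates of each genotype lay close together and the genotypes did not overlap, and the fall was 5.46-fold (-2.45 ± 0.47, adjusted p = 0.0177, limma). The large standard error of Acan came from the other genotypes: WT replicates on other chips ran between 7.12 and 9.35, and the 6 arrays normalized and fitted alone gave an adjusted p of 0.00189. In the fit with 5 genotypes the Acan call was kept without the library labelled Pax1-/-Pax9-/- replicate 1 and was lost when any other of the 6 was left out. Mia, a secreted protein of cartilage, fell 2.89-fold (-1.53 ± 0.30, adjusted p = 0.0177, limma), with 8.23, 7.83 and 7.98 in Pax1-/-Pax9-/- and 9.68, 9.37 and 9.59 in Pax1-/-Pax9+/-. The Mia call was lost without Pax1-/-Pax9-/- replicate 2 or 3 or Pax1-/-Pax9+/- replicate 1 or 3. On other chips, Mia ran from 7.719 to 9.065 in WT and from 8.379 to 9.256 in Pax1-/-. Its Pax1-/-Pax9-/- values lay within the WT range and below every Pax1-/- replicate. Its Pax1-/-Pax9+/- values lay above every replicate of both.

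Cnmd encodes chondromodulin, a cartilage protein that holds back vessel growth. It was not detected in any Pax1-/-Pax9-/- library and read 6.21, 6.07 and 5.97 in Pax1-/-Pax9+/-. Where a gene was undetected in a whole group, the FC is a bound, taken against the lowest signal of a detected probe on each array. Cnmd was at least 2.01-fold lower (adjusted p = 0.0494, limma), and this call was lost whichever library was left out. All chains of type IX collagen were read and lay lower without being called: the differences were -0.96 for Col9a1 (adjusted p = 0.0860, limma), -0.75 for Col9a2 and -0.68 for Col9a3. Col11a2 (0.07) and Matn1 (0.03), a type XI collagen chain and matrilin 1, had overlapping replicates. Genes that are given here and below although they were not called, and that belong neither to the markers nor to the genes taken from the study's text, were in part chosen after their values were seen.

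**Figure D2:**
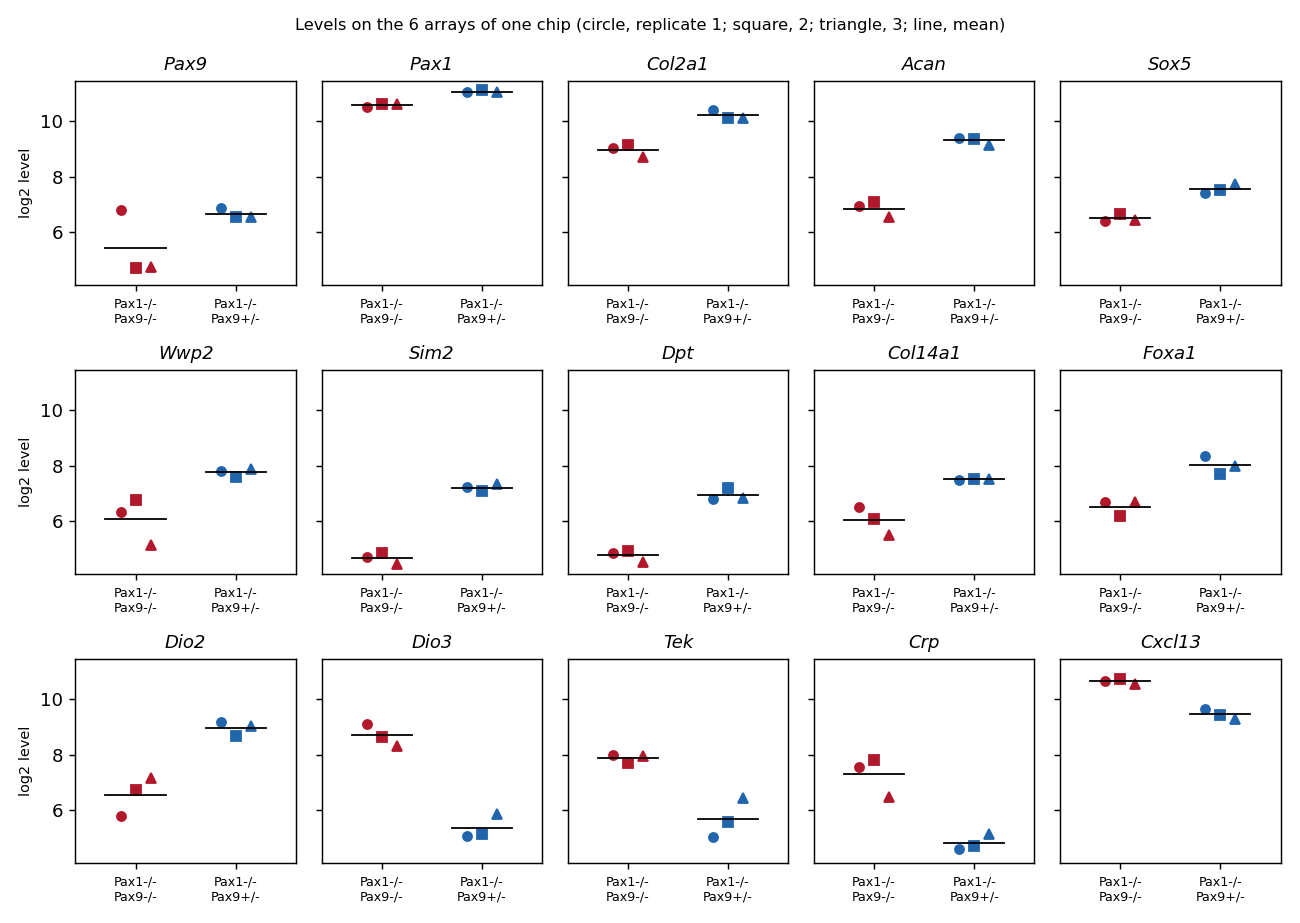
Each panel shows the log2 level of 1 gene on the 6 arrays, with the 3 Pax1-/-Pax9-/- replicates at the left in red, the 3 Pax1-/-Pax9+/- replicates at the right in blue, a symbol for each replicate number and a line at the group mean. Pax9 in the library labelled Pax1-/-Pax9-/- replicate 1 (6.81) lies with the Pax1-/-Pax9+/- replicates. Acan, Sim2, Dpt and Dio3 of the same library lie with its own group, as do all called genes. The called genes as a set were called with the library counted in that group, so they do not check its label. Acan, Sim2, Dpt and Dio3 were also called without the library (adjusted p = 0.042, 0.0097, 0.0073 and 0.00028, limma). The label itself was not tested.

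Among chondrogenic transcription factors and their partners, 2 of 17 measured genes of 22 listed fell and none rose, and the median difference was -0.44. The share called lower over all genes tested was 0.313%. Sox5, which acts with Sox6 beside Sox9, read 6.41, 6.67 and 6.44 in Pax1-/-Pax9-/- and 7.41, 7.51 and 7.73 in Pax1-/-Pax9+/-. It fell 2.06-fold (-1.04 ± 0.16, adjusted p = 0.00140, limma), but its 5 probes were unequal, with differences between -1.45 and -0.01. Wwp2, a ubiquitin ligase gene whose intron holds miR-140 of cartilage, read 6.34, 6.77 and 5.16 in Pax1-/-Pax9-/-, against 7.83, 7.58 and 7.90 in Pax1-/-Pax9+/-. The FC of Wwp2 was 3.21 (-1.68 ± 0.28, adjusted p = 0.00420, limma), and it was not called by the 6 arrays normalized and fitted alone (adjusted p = 0.120). Sox6 differed by -0.96 and was not called (adjusted p = 0.202, limma), although its replicates did not overlap. Sox9, the factor that starts the chondrogenic program, read 9.26, 9.31 and 9.88 in Pax1-/-Pax9-/- and 10.42, 9.81 and 10.15 in Pax1-/-Pax9+/-, and the groups overlapped (-0.64 ± 0.31, adjusted p = 0.516, limma). Sulfate and chondroitin sulfate synthesis had 16 measured genes of 24, none called, with a median of -0.06. Papss2, which makes the sulfate donor for proteoglycans, had the largest difference of that list: levels of 8.72, 8.57 and 8.67 in Pax1-/-Pax9-/- against 9.77, 9.50 and 9.75 in Pax1-/-Pax9+/- (-1.02 ± 0.28, adjusted p = 0.123, limma). In the 6 arrays normalized and fitted alone Papss2 passed (adjusted p = 0.0335).

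Genes of the collagen fibril surface split. Of 25 listed, 18 were measured. Among them 4 fell (Dpt, Col14a1, Fmod and Prelp), against 0.313% of all genes tested, and none rose, yet the median was 0.11. In Pax1-/-Pax9-/-, 5 measured members lay wholly above and 5 wholly below the other group, and 16.3% of all genes tested did not overlap. Dpt encodes dermatopontin, a matrix protein that speeds collagen fibril assembly. Its levels in Pax1-/-Pax9-/- were 4.88, 4.93 and 4.54, none detected, against 6.82, 7.19 and 6.85 in Pax1-/-Pax9+/-, so it was at least 3.67-fold lower (adjusted p = 0.00123, limma). Col14a1, a fibril-associated collagen, read 6.51, 6.09 and 5.51 in Pax1-/-Pax9-/- and 7.50, 7.53 and 7.53 in Pax1-/-Pax9+/- (-1.48 ± 0.21, adjusted p = 0.000706, limma). Fmod, encoding the small proteoglycan fibromodulin, fell by 0.87 ± 0.17 (adjusted p = 0.0177, limma). Prelp, from the same proteoglycan family, was not detected in Pax1-/-Pax9-/- and was at least 1.39-fold lower (adjusted p = 0.0327, limma). The calls of Fmod and Prelp were each lost when Pax1-/-Pax9-/- replicate 2 or 3 or Pax1-/-Pax9+/- replicate 1 or 3 was left out. Lum, a relative of Fmod, differed by -0.59 without passing the test (adjusted p = 0.174, limma).

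Interstitial collagens and their crosslinking enzymes gave no call among 23 measured genes of 34, with a median of 0.12. Col1a2 read 10.35, 10.44 and 10.43 in Pax1-/-Pax9-/- and 9.66, 9.99 and 9.83 in Pax1-/-Pax9+/-, a difference of 0.58 that did not pass (adjusted p = 0.440, limma). Plod2, a lysyl hydroxylase that prepares collagen for crosslinking, differed by -0.996 ± 0.23 (adjusted p = 0.0635, limma), and Col6a2 by 0.59 (adjusted p = 0.620, limma). In the other matrix list, 1 of 34 measured genes of 45 was called. This was Col15a1, a collagen of basement membrane zones, which fell (-1.50 ± 0.33, adjusted p = 0.0481, limma). Col15a1 was detected on 1 of the 3 Pax1-/-Pax9-/- arrays, so the size of its fall is uncertain, and its call was lost without Pax1-/-Pax9-/- replicate 2 or 3 or Pax1-/-Pax9+/- replicate 1 or 3. Col19a1, a further fibril-associated collagen, read 4.61, 6.02 and 5.17 in Pax1-/-Pax9-/- and 7.24, 7.48 and 7.40 in Pax1-/-Pax9+/- (-2.11 ± 0.31, adjusted p = 0.00129, limma), and was detected on 2 of the 3 Pax1-/-Pax9-/- arrays, as was Gca. In Pax1-/-Pax9+/-, Tek, Wnt6 and Blvrb were each detected on 2 of 3 arrays.

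Of the sclerotome and disc anlage genes, 22 of 27 were measured, 2 fell (Sim2 and Fmod), none rose, and the median was -0.03. Of all genes tested, 0.313% fell. Sim2 encodes a bHLH-PAS transcription factor. It was detected in no Pax1-/-Pax9-/- library, with 4.72, 4.85 and 4.45, and in every Pax1-/-Pax9+/- library, with 7.22, 7.08 and 7.35, so it was at least 4.41-fold lower (adjusted p = 0.00145, limma). General sclerotome genes gave small differences: -0.05 for Foxc2, 0.04 for Twist1 and -0.01 for Tbx18. The tendon regulator Scx differed by -0.11. The list of tendon and syndetome genes held 14 measured members of 22 with Col14a1 as the one call.

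Forkhead gene Foxa1 lies 0.849 Mb from Pax9 on chromosome 12. It read 6.70, 6.21 and 6.68 in Pax1-/-Pax9-/- and 8.35, 7.71 and 7.99 in Pax1-/-Pax9+/-, a 2.80-fold fall (-1.49 ± 0.19, adjusted p = 0.000402, limma). On other chips, Foxa1 ran from 6.28 to 6.61 in WT and from 7.02 to 7.55 in Pax1-/-. Its Pax1-/-Pax9-/- values thus overlapped WT, and its Pax1-/-Pax9+/- values lay above every WT and Pax1-/- replicate. Foxa1 was the only call among the 26 genes tested within 5 Mb of Pax9. Foxa1 was also the 1 call among 10 measured genes of 20 in the notochord and epithelium list, whose median was 0.17. With Foxa1, the keratin genes Krt8 (-0.39) and Krt5 (-0.30) lay wholly lower in Pax1-/-Pax9-/- without being called, no member lay wholly higher, and the epithelial adhesion genes Epcam (0.26) and Cdh1 (0.52) overlapped. Chromosome 12 also carries Dio2 and Dio3, 34.0 and 53.6 Mb from Pax9. With Foxa1 these made 3 calls among 368 genes tested there, or 0.815%, against 0.465% over all chromosomes, and the share was higher on chromosomes 1 (1.55%), 16 (1.17%) and 18 (1.12%). The calls on chromosome 18 included 4930426D05Rik and Klhl14, whose positions overlap.

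Dio2 and Dio3 moved in opposite directions. Dio2 encodes the deiodinase that turns thyroxine into its active form, and Dio3 the one that inactivates thyroid hormone. Dio3 read 9.12, 8.65 and 8.33 in Pax1-/-Pax9-/- and 5.08, 5.16 and 5.87 in Pax1-/-Pax9+/-. At 10.1-fold (3.33 ± 0.33, adjusted p = 2.92e-05, limma) this was the largest rise among the calls. Dio2 read 5.79, 6.73 and 7.18 in Pax1-/-Pax9-/- and 9.18, 8.66 and 9.04 in Pax1-/-Pax9+/-, a 5.25-fold fall (-2.39 ± 0.27, adjusted p = 0.000117, limma). Neither pair of groups overlapped, and both calls were kept whichever library was left out.

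The other large falls covered genes of several kinds. Cadps2, which primes dense-core vesicles for release, read 7.78, 7.59 and 7.30 in Pax1-/-Pax9-/- and 9.30, 9.54 and 9.45 in Pax1-/-Pax9+/- (-1.87 ± 0.21, adjusted p = 0.000117, limma). The unnamed transcript 4930426D05Rik read 4.70, 6.43 and 4.67 in Pax1-/-Pax9-/-, against 8.16, 8.48 and 8.09 in Pax1-/-Pax9+/- (-2.98 ± 0.35, adjusted p = 0.000146, limma), and was detected on 1 of the 3 Pax1-/-Pax9-/- arrays. Ccl2, the chemokine that attracts monocytes, and Klhl14 were not detected in Pax1-/-Pax9-/- and were at least 2.58-fold and at least 2.89-fold lower (adjusted p = 0.000402 for each, limma). Gca, encoding the calcium-binding protein grancalcin, fell by 1.76 ± 0.38 (adjusted p = 0.0381, limma), and kept its call only without Pax1-/-Pax9-/- replicate 3. A further 11 genes fell by 0.61 to 1.25, named here after their values were seen: Elapor2, Vwa5b2, Cavin2, Nomo1, Adgrb3, Ttc39c, Adgrg2, Pex11a, Pebp4, Chodl and Fgd1. Those whose Pax1-/-Pax9-/- values overlapped the Pax1-/- replicates on other chips included Vwa5b2, Pex11a and Pebp4. Elapor2, Cavin2, Nomo1, Ttc39c and Pebp4 overlapped the WT replicates there. Adgrb3, Adgrg2, Chodl and Fgd1 lay below all replicates of both groups. In Pax1-/-Pax9+/-, Vwa5b2, Pebp4 and Elapor2 lay above every Pax1-/- and WT replicate. Their lowest Pax1-/-Pax9+/- values were 6.12, 5.30 and 7.12, against at most 5.17, 4.96 and 6.75 in Pax1-/- and WT.

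The promoters of 4 called genes are shown because they carry the letters GTGACC, which form part of the sequence recognised by paired domains: Foxa1, Col19a1 and Wwp2 fell and Crp rose. Each sequence is the 250 bases before an annotated start site of the gene (GRCm38.p6), written 5′ to 3′ on the strand of the gene. GTGACC or its reverse complement GGTCAC is in capitals. For Foxa1, Col19a1 and Wwp2 this start site lies inside the RefSeq bounds of the gene, so their windows lie wholly or partly within those bounds.
Foxa1, chr12:57546112-57546361, minus strand: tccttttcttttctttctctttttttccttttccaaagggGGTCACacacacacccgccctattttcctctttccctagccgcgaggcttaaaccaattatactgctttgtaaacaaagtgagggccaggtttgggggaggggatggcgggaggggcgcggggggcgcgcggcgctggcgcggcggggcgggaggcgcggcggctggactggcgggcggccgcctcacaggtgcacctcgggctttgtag
Col19a1, chr1:24587438-24587687, minus strand: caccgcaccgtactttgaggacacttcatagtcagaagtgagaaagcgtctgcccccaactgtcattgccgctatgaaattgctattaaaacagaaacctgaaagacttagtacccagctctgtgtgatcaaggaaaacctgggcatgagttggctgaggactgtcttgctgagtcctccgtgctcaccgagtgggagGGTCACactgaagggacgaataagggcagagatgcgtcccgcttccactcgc
Wwp2, chr8:107436120-107436369, plus strand: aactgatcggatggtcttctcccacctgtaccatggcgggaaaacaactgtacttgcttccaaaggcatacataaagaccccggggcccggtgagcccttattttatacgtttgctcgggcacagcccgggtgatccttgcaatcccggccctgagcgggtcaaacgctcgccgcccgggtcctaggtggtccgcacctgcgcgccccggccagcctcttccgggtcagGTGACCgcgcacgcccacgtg
Crp, chr1:172697806-172698055, plus strand: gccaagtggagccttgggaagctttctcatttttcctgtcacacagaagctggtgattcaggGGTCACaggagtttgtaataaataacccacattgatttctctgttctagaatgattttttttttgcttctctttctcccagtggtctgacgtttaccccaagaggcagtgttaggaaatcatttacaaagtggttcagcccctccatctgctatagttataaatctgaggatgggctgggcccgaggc
Promoters were found for 37 of the 49 called genes, with 41 start sites. The letters were present on either strand in 6 of these 41 windows, or 14.6%, against 12.6% of all 32851 promoters of this length. They occurred in 4 of 27 windows of genes that fell (Foxa1, Col19a1, Wwp2 and 1 of the 3 windows of Bmpr1b) and in 2 of 14 of genes that rose (Crp and Shisa3), so the share was close to the background in both directions. A match of letters is not a bound site.

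**Figure D3:**
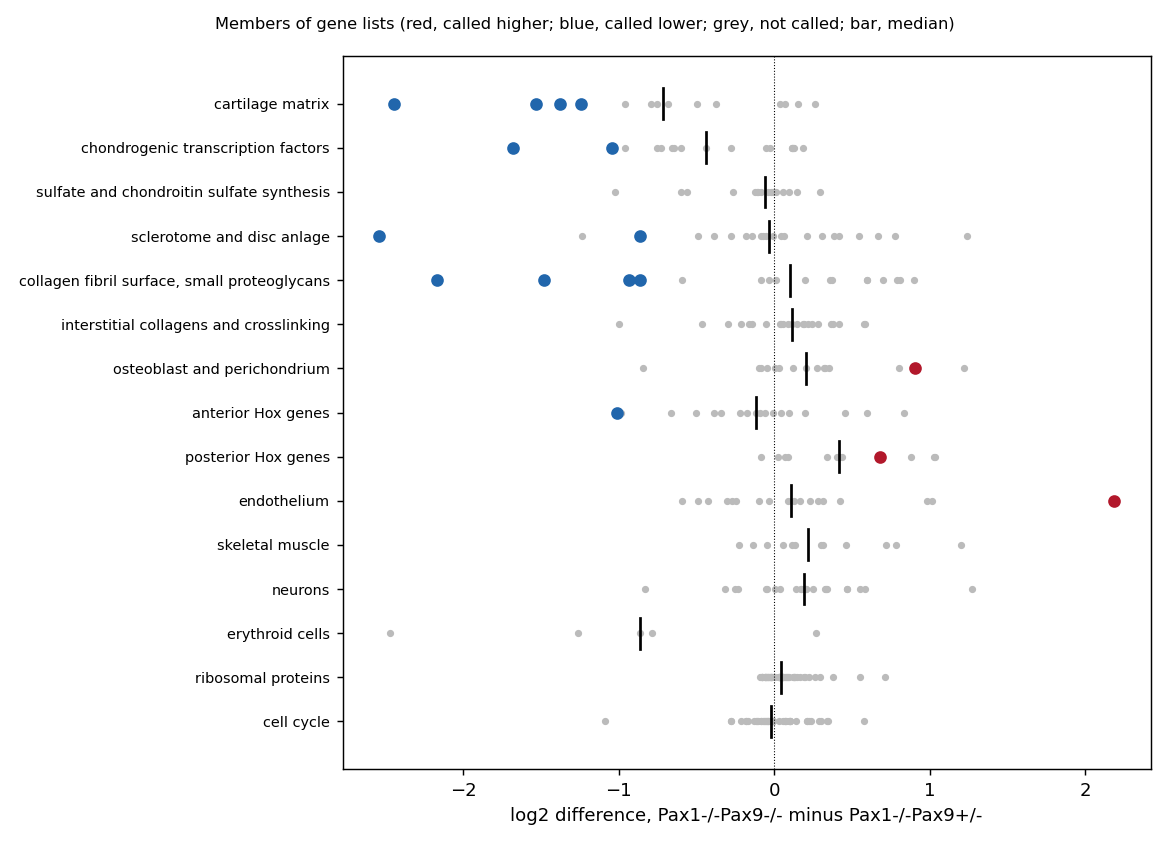
Each row is a gene list and each point a measured member, placed by its log2 difference, Pax1-/-Pax9-/- minus Pax1-/-Pax9+/- (x axis), with members called lower in blue, called higher in red, not called in grey, and a black bar at the median. The 14 cartilage matrix genes have a median of -0.72 with 4 calls, whereas the 18 genes of the collagen fibril surface have 4 calls and a median of 0.11.

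Signalling genes were called singly. Bmpr1b, a type I BMP receptor that acts in cartilage condensations, read 8.70, 8.62 and 8.87 in Pax1-/-Pax9-/- and 9.48, 9.33 and 9.76 in Pax1-/-Pax9+/- (-0.79 ± 0.15, adjusted p = 0.0184, limma). It was the 1 call among 26 measured genes of 39 for BMP and GDF signalling, which had a median of -0.03, and it was not called without the library labelled Pax1-/-Pax9-/- replicate 1 or 2, or without Pax1-/-Pax9+/- replicate 1 or 3. Id4, a nuclear target of BMP signals, missed the threshold (-1.36 ± 0.30, adjusted p = 0.0501, limma). Wnt6, a Wnt ligand, was higher in Pax1-/-Pax9-/- (5.30, 5.33 and 5.80) than in Pax1-/-Pax9+/- (4.96, 4.78 and 4.79), with a difference of 0.63 ± 0.13 (adjusted p = 0.0243, limma). It was 1 of 30 measured Wnt genes of 53, and its call was lost without Pax1-/-Pax9-/- replicate 3 or any single Pax1-/-Pax9+/- replicate. Hedgehog (18 measured genes), TGF-B (18), FGF (20) and Notch (15) lists had no call. Evc, a hedgehog component of the cilium, differed by 0.99 (adjusted p = 0.0620, limma). Pmepa1, a TGF-B target, differed by -0.64 and Inhba, an activin subunit, by -0.70. Fgfr2 differed by -0.44 and Fgfrl1 by -0.71, and Notch1 by -0.78 and Notch4 by 0.89.

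Hox genes, which give axial position, held 1 call in each direction. Hoxa4 fell to 6.01, 5.97 and 6.26 in Pax1-/-Pax9-/-, against 7.18, 6.87 and 7.22 in Pax1-/-Pax9+/- (-1.01 ± 0.17, adjusted p = 0.00442, limma). Hoxc10 read 8.72, 8.55 and 8.40 in Pax1-/-Pax9-/- and 7.92, 7.84 and 7.87 in Pax1-/-Pax9+/- (0.68 ± 0.14, adjusted p = 0.0291, limma). Each was the single call of its list. The 19 measured anterior genes of 23 had a median of -0.12 and the 12 measured posterior genes of 17 a median of 0.41, and 5 of these 12 lay wholly above Pax1-/-Pax9+/-. Counting both directions, replicates did not overlap for 16.3% of all genes tested. The axial level of dissection in each library was not given in the labels, and its part in these values was not tested. The Hoxc10 call was kept only without Pax1-/-Pax9-/- replicate 3.

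Tek, the receptor for angiopoietins, was up-regulated. It read 7.98, 7.71 and 7.96 in Pax1-/-Pax9-/- and 5.03, 5.60 and 6.46 in Pax1-/-Pax9+/-, a 4.55-fold rise (2.19 ± 0.37, adjusted p = 0.00575, limma). Its call was lost without Pax1-/-Pax9+/- replicate 1 (adjusted p = 0.0622). Tek was the 1 call among 18 measured endothelial genes of 32. The summed signal of these 18 ranged from 1806 to 2688 in Pax1-/-Pax9-/- and from 1594 to 2195 in Pax1-/-Pax9+/-. Pecam1, an adhesion molecule of endothelium, read 8.02, 7.66 and 7.20 in Pax1-/-Pax9-/- and 7.09, 7.36 and 8.03 in Pax1-/-Pax9+/-, and Kdr, a receptor for VEGF, differed by -0.03. Cdh5, Flt1 and Tie1, defining endothelial genes, were not among the measured genes. The part of endothelial cells in the Tek result was not tested. Emcn, the sialomucin endomucin, was not called in the fit with 5 genotypes (1.02 ± 0.35, adjusted p = 0.266, limma), with 7.30, 7.26 and 7.14 in Pax1-/-Pax9-/- and 6.02, 6.36 and 6.27 in Pax1-/-Pax9+/-, but it was called by the 6 arrays normalized and fitted alone.

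The other rises are given by size of effect and role. Crp, known from liver as an acute-phase protein, read 7.56, 7.82 and 6.50 in Pax1-/-Pax9-/- and 4.60, 4.72 and 5.16 in Pax1-/-Pax9+/- (2.47 ± 0.35, adjusted p = 0.00107, limma), and was detected on 1 of the 3 Pax1-/-Pax9+/- arrays. Cxcl13, the chemokine for B cells, read 10.65, 10.74 and 10.56 in Pax1-/-Pax9-/- and 9.66, 9.42 and 9.28 in Pax1-/-Pax9+/- (1.20 ± 0.21, adjusted p = 0.00661, limma), a call that, of the 6 libraries left out in turn, was lost only without Pax1-/-Pax9+/- replicate 3. Rxfp2, the receptor for insulin-like peptide 3, read 7.72, 8.01 and 7.58 in Pax1-/-Pax9-/- and 5.73, 6.47 and 5.97 in Pax1-/-Pax9+/- (1.71 ± 0.33, adjusted p = 0.0158, limma). The Rxfp2 call was lost without Pax1-/-Pax9-/- replicate 2 or without Pax1-/-Pax9+/- replicate 1 or 3.

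Thsd7b (1.71 ± 0.36), Tbc1d7 (1.23 ± 0.24), Sorcs3 (1.15 ± 0.24), Blvrb (1.02 ± 0.22) and Shisa3 (0.91 ± 0.16) also rose, with adjusted p-values between 0.00922 and 0.0401 (limma). Thsd7b and Tbc1d7 each kept the call in 1 of the 6 fits that left out a library, Sorcs3 and Blvrb in 2 and Shisa3 in 5. Tbc1d7 and Blvrb in Pax1-/-Pax9-/- overlapped both the WT and the Pax1-/- replicates of other chips. Thsd7b, Sorcs3 and Shisa3 in Pax1-/-Pax9-/- lay above all of those replicates. Mean Tbc1d7 was 6.33 in Pax1-/-Pax9+/-, below 7.57 (Pax1-/-Pax9-/-), 7.46 (Pax1-/-) and 7.42 (WT). For Blvrb these means were 5.16, 6.19, 6.105 and 5.77, in the same order. Mamdc2, detected in every Pax1-/-Pax9-/- and in no Pax1-/-Pax9+/- library, was at least 1.66-fold higher (adjusted p = 0.00357, limma). Nr2f2, an orphan nuclear receptor gene, was the 1 call of 15 measured genes of 28 in the osteoblast and perichondrium list. It read 7.57, 7.68 and 7.81 in Pax1-/-Pax9-/- and 6.69, 6.96 and 6.69 in Pax1-/-Pax9+/- (0.91 ± 0.17, adjusted p = 0.0155, limma). The Nr2f2 call was lost without Pax1-/-Pax9-/- replicate 2 or 3 or Pax1-/-Pax9+/- replicate 1 or 3. Alpl, alkaline phosphatase, was not called (0.81, adjusted p = 0.0556, limma), and S100a10 and Mylk, named after their values were seen, rose by 0.80 and 0.70. S100a10 in Pax1-/-Pax9-/- overlapped the Pax1-/- and WT replicates on other chips, while Mylk lay above all of them.

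Markers of the other cell types that the sort could hold gave few calls. Besides Tek and Foxa1 there was none among 10 measured pericyte and smooth muscle genes, 12 skeletal muscle genes, 23 neuronal genes, 7 neural progenitor genes, 9 neural crest and glial genes, 5 erythroid genes and 12 macrophage and granulocyte genes. The medians of these lists lay between -0.86 (erythroid) and 0.22 (skeletal muscle). Tnnt1, slow troponin T, had the largest difference of the muscle list: it read 8.36, 8.59 and 8.63 in Pax1-/-Pax9-/- and 7.76, 7.16 and 7.06 in Pax1-/-Pax9+/- (1.20, adjusted p = 0.160, limma), and the summed muscle signal ranged from 1200 to 1679 in Pax1-/-Pax9-/- and from 957 to 1129 in Pax1-/-Pax9+/-. The part of these cells in the results was not tested. Ribosomal proteins (54 measured genes, median 0.04), oxidative phosphorylation (70, median 0.02) and the cell cycle (44, median -0.02) had no call. Neither did the 25 immediate early genes, among which Fos averaged 9.68 ± 0.19 in Pax1-/-Pax9-/- and 8.48 ± 0.43 in Pax1-/-Pax9+/- (SD, n = 3 each) with no overlap (1.20 ± 0.36, adjusted p = 0.175, limma). The hypoxia and glycolysis (28 measured genes), polycomb and chromatin (17), adhesion (34), guidance (33) and insulin-like growth factor (14) lists had no call either. The cadherin Cdh8 read 8.27, 8.29 and 8.22 in Pax1-/-Pax9-/- and 5.73, 6.23 and 6.05 in Pax1-/-Pax9+/-, a difference of 2.25 that was not called (adjusted p = 0.0886, limma) but passed in the 6 arrays normalized and fitted alone (adjusted p = 0.00189). Pappa, a protease of the insulin-like growth factor axis, differed by 1.27 (adjusted p = 0.0872, limma), and the guidance receptors Epha3 and Robo2 by 0.62 and -0.82.

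One gene list was taken from the text of the study, where its members appear in several connections (changes with Pax9 dosage, Pax9 binding, BMP and TGF-B targets, and the Pax and Sox genes themselves), so a place on the list is no statement that the study found a change. The study examined these arrays, so the counts are not independent evidence. Of the 13 listed genes, 6 fell (Col2a1, Dpt, Sox5, Sim2, Wwp2 and Acan) and none rose, with a median of -1.04. Over all genes tested, 0.313% fell. Not called were Pax1, Pax9, Papss2 and Sox9, given above, and Ccn2 (formerly Ctgf), a matricellular growth factor partner that differed by -0.64 ± 0.19 (adjusted p = 0.176, limma). Also not called were Cbx2, a polycomb subunit, and Hip1, an endocytic adaptor, which differed by -0.24 and -0.19 with overlapping replicates.

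The step from 2 functional Pax9 copies to 1, Pax1-/-Pax9+/- against Pax1-/-, rests on arrays of different chips, so chip and genotype cannot be told apart there, and it shares the Pax1-/-Pax9+/- libraries with the comparison above, so that any chance deviation of these libraries enters both with opposite sign. The genes given were chosen after their values were seen. Klhl14 differed by -1.12 ± 0.22 at that step (adjusted p = 0.00364, limma) and 4930426D05Rik by -1.25 ± 0.32 (adjusted p = 0.0119, limma), and both were lower again in Pax1-/-Pax9-/-. They share a locus, since 4930426D05Rik lies within the bounds of Klhl14. Col2a1 (-0.11), Sim2 (-0.42), Dpt (-0.41) and Dio3 (0.13) were not called at that step. Acan was higher in Pax1-/-Pax9+/- than in Pax1-/- by 1.49 ± 0.42 (adjusted p = 0.0223, limma), and Foxa1 by 0.76 ± 0.17 (adjusted p = 0.00678, limma). Acan and Foxa1 were both lower in Pax1-/-Pax9-/- than in Pax1-/-Pax9+/-. Dio3 in Pax1-/-Pax9-/- (8.33 to 9.12) lay above all Pax1-/- replicates (4.69 to 5.52) and all WT replicates (5.03 to 6.51).

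**Figure D4:**
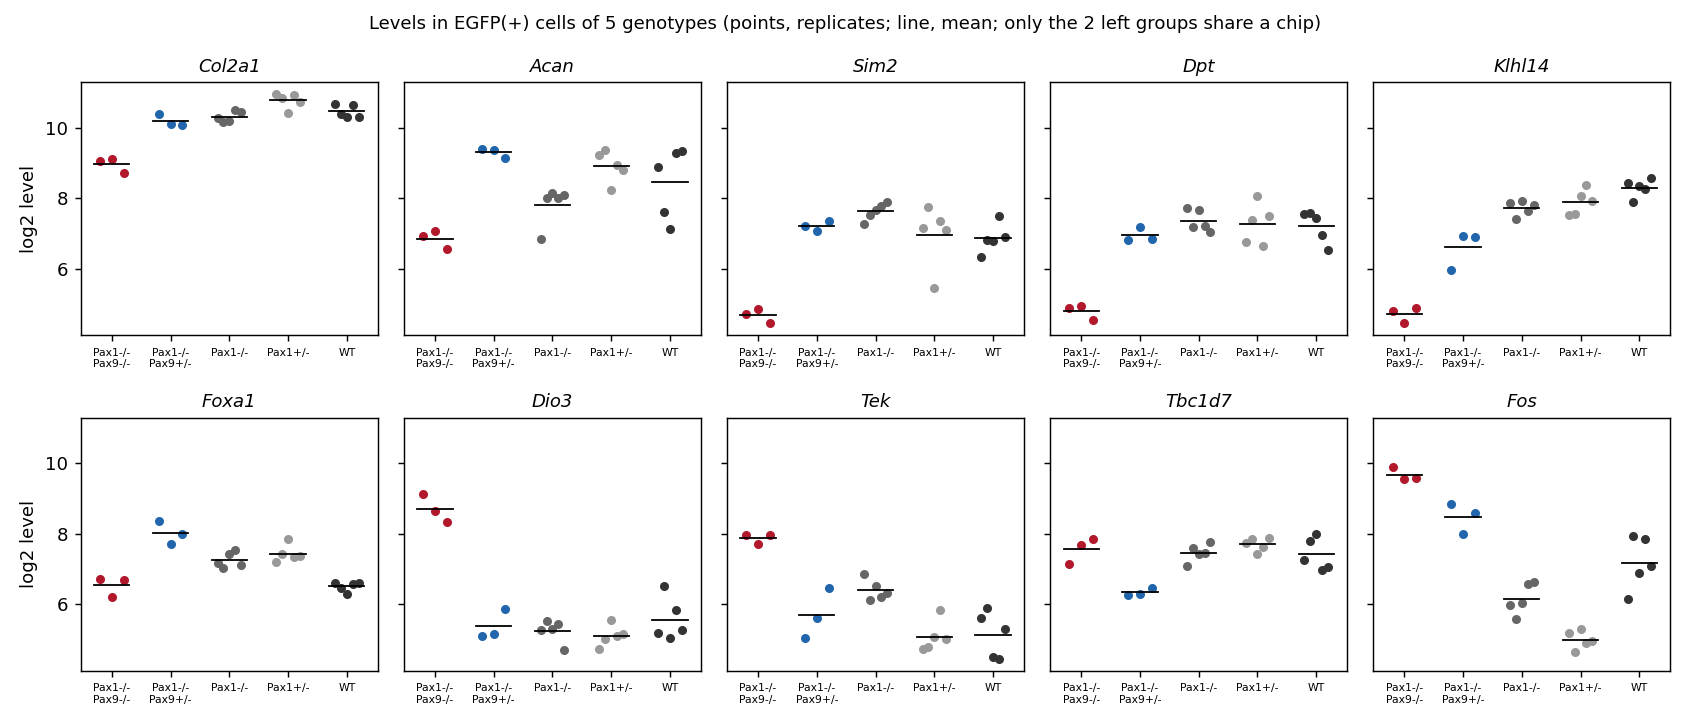
Each panel shows the log2 level of 1 gene (y axis) in EGFP(+) cells of Pax1-/-Pax9-/-, Pax1-/-Pax9+/-, Pax1-/-, Pax1+/- and WT embryos from left to right, with a point for each replicate and a line at the mean. The Pax1-/-Pax9-/- and Pax1-/-Pax9+/- groups share a chip and the others do not, and Col2a1, Sim2 and Dpt are lowest in Pax1-/-Pax9-/-, with means of 8.97, 4.67 and 4.78.

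Of the 49 called genes, 23 were read by more than 1 probe, and in all 23 every probe moved in the direction of the gene. The calls differed in how far they depended on the processing. Dio3 was called under 26 of the 29 alternative settings and Col2a1, Sim2, Dpt, Sox5, Foxa1, Dio2 and Ccl2 under 25, against 17 for Acan, 9 for Cnmd and 6 for Ttc39c, the lowest.

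**Figure D5:**
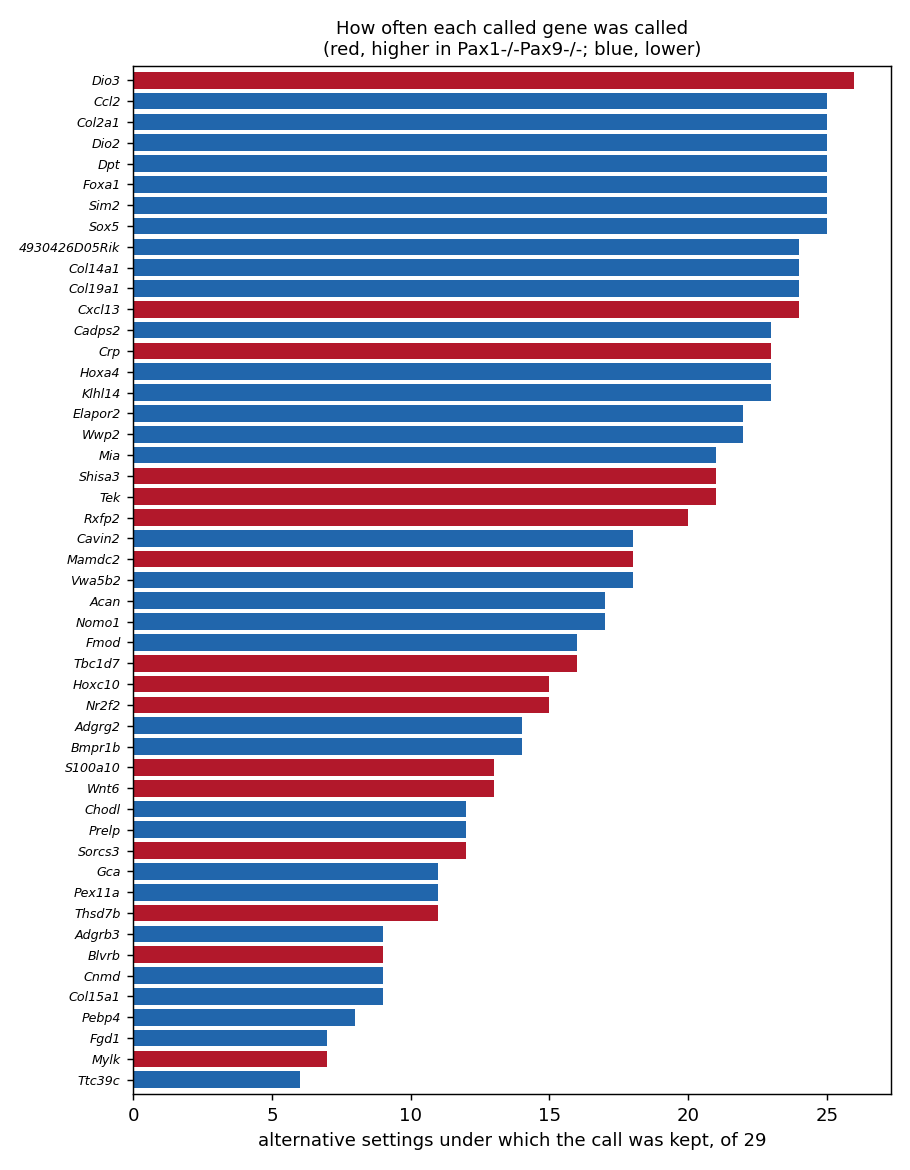
Bars give the number of the 29 alternative settings under which each of the 49 genes kept its call in the same direction (x axis), with genes higher in Pax1-/-Pax9-/- in red and lower in blue. Dio3 has the longest bar (26) and Ttc39c the shortest (6).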

How the data were processed

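RNA of sorted EGFP(+) cells was hybridized to Illumina MouseWG-6 BeadChips, 28 arrays on 5 chips. The authors exported signal intensity values with background subtraction by BeadStudio and without normalization. The deposited detection p-values give the chance that background alone would reach the signal of each probe. The deposited log2 values of the series matrix, which the authors quantile normalized, were used as an alternative only. The genome build used by the authors was not given in the sources used here.

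Intensities of the 28 arrays were corrected by normexp from the detection p-values (offset 16) and quantile normalized in limma 3.58.1 (R 4.3.3). Of 45281 probes, 34885 have 1 gene symbol in the platform table, 18 several and 10378 none. Probes with 1 symbol and a detection p-value under 0.05 on at least 3 of the 6 arrays (16364) were averaged per gene. The fit held 21 replicates of 5 genotypes, with repeat arrays of 1 replicate name averaged, genotype as the only term, and 16 residual degrees of freedom. The methods' Welch analysis of variance was run as an alternative. The number of arrays limits the precision.

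The named genes were Pax1 and Pax9, 6 markers, 13 genes taken from the study's text, the 12 largest rises and falls among calls without overlap, and from each of 38 gene lists up to 4 called members or, with none called, the 2 with the largest difference. The members and lists were chosen with earlier results of these data known. The fitting code was tested on simulated data. List members were matched to current symbols through RefSeq (1164 of 1167).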

Additional observations from a re-analysis of the deposited data

Results flagged for a closer look

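Probes without a gene symbol were left out of the comparison. Of 3539 such probes that passed the same detection filter, 6 were called between Pax1-/-Pax9-/- and Pax1-/-Pax9+/-, 3 higher and 3 lower (limma, Benjamini-Hochberg over these probes). The largest difference was 2.34 ± 0.33 (adjusted p = 0.00341, limma), with levels of 7.77, 7.28 and 6.94 in Pax1-/-Pax9-/- and 4.87, 4.73 and 5.36 in Pax1-/-Pax9+/-. The largest fall among them was -1.51 ± 0.30 (adjusted p = 0.0374, limma), with levels of 5.77, 5.79 and 5.44 in Pax1-/-Pax9-/- and 7.19, 7.30 and 7.05 in Pax1-/-Pax9+/-. Which transcripts they read was not analysed here. Groups of 3 arrays were too small for a test of outlying samples.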

How the results depend on the processing

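All 49 called genes kept their direction under all 29 alternatives that tested them (30 of the 49 were tested where a probe had to be detected on all 6 arrays). The 49 calls became 24 after median centring (16.7% of them higher, against 32.7%), 17 with the 6 arrays fitted alone on the common normalization, 21 with WT and both compound genotypes alone, 23 with probes detected on all 6 arrays, 111 with array weights and 538 without adjustment of p. With signals floored at 1, 20% of the calls were higher. The methods' test called 340 genes before adjustment and 0 after Benjamini-Hochberg, with or without the Student Newman-Keuls step. Leaving out 1 library gave 23 to 62 calls. The cause was not tested. Apart from leaving out a library and from the replicate block, the other counts were within 1.5 times of 49.

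Replicate numbers did not pair the samples: the deviations of same-numbered replicates correlated at -0.02, 0.00 and 0.01. The replicate block, fitted on the 6 arrays alone, gave 0 calls in limma, with 1113 genes at an unadjusted p under 0.05. Both the block and the number of arrays differ from the fit with 49 calls, and the same 6 arrays without the block gave 17 calls and 1160 genes at that p.

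Of the genes named, the direction changed once: Mrc1, a macrophage receptor that was not called, gave -0.0773 to 0.73 when 1 library was left out, the lowest without Pax1-/-Pax9+/- replicate 1, against 0.45 with all libraries. Depth limits dim genes: 9 of the 49 were undetected in a whole group.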
